A study of Schizosaccharomyces pombe with 8 samples.

Results

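In fission yeast cells lacking glutathione reductase, 24 genes of the 5165 in the deposited table stood above wild type both with and without hydrogen peroxide (H2O2), while H2O2 itself moved their group means by less than 1.5-fold in either strain. They include gpd3 and gpm1, which encode glycolytic enzymes, bfr1 and pmd1, which encode drug exporters, hem1, which encodes the first enzyme of heme synthesis, and php2, which encodes a subunit of the CCAAT-binding complex. The choice depended on the scaling. Under quantile normalization all of these named genes except php2 fell by more than 1.5-fold with H2O2 in the mutant, and 10 of the 24 still qualified. The members were picked by measured values. On the scale log2(group mean + 1), the pgr1 mutant had to exceed wild type by at least 0.7 in both conditions, and treated minus untreated had to lie between -0.585 and 0.585, the log2 of 1.5, in both strains. All 4 mutant libraries had to hold at least 20 normalized counts, and genes named wtf or Tf2, which belong to repeated families, were left out. Because all 4 contrasts and all 8 libraries served to choose the genes, their levels and differences are given as a description and nothing is tested on them.

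Poly(A) RNA was sequenced from Schizosaccharomyces pombe in 4 groups of 2 libraries each: a pgr1 deletion strain treated with 1 mM H2O2 for 30 min, the same strain untreated, wild type (strain 972) given the same treatment, and untreated wild type. The culture medium was YE5S, which is rich and based on yeast extract, the temperature was 30 °C and the OD600 was 0.5. The labels name 1 deletion strain and do not say whether both libraries of a group stem from different cultures, so the spread between them may be technical. The gene pgr1 encodes glutathione reductase, which uses NADPH to return oxidised glutathione to its reduced form.

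Glutathione is an abundant small thiol that serves peroxidases, glutaredoxins and transferases, and cells without its reductase carry a more oxidised glutathione pool. In S. pombe, H2O2 signals through the stress kinase Sty1 with its factor Atf1, which drives a broad stress programme, and through Pap1, a factor of the AP-1 type that turns on antioxidant genes and exporters.

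The libraries held 12026222 to 14125543 recovered reads, and levels are the authors' DESeq2-normalized counts, which are not divided by gene length. The transcript of pgr1 itself (SPBC17A3.07) had 92.9 and 105 normalized counts in the treated mutant and 159 and 91.4 in the untreated mutant, against 7201 and 6792 in treated wild type and 4939 and 4805 in untreated wild type. All 4 mutant libraries were low, as their labels require. RNA came from whole cultures, in which a higher level in every cell and a larger share of cells with a high level cannot be told apart, nor can fewer cells and less RNA per cell. Unless stated otherwise, a difference below is a log2 difference ± SE from limma, fitted to log2(value + 1) of all 8 libraries with n = 2 in each group, and it can depart slightly from the difference of group means that the rule used.

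Every member showed the same layout across libraries: all 4 mutant libraries lay above all 4 wild-type libraries, in 24 of 24 genes. Over the 5028 genes tested, 8.05% had that layout, and 39.7% had both mutant libraries above both wild-type libraries after H2O2 and 37.1% without it. The ratio of mutant to wild-type means ran from 1.63 to 16.4 in treated cells, with a median of 2.04, and from 1.63 to 25.03 in untreated cells, with a median of 2.04. The rule's difference was at least 1 in both conditions for 9 members and at least 2 for 5 members. In limma (Benjamini-Hochberg adjusted p below 0.05) 24 of 24 members were called higher in the treated mutant, where 26.5% of all genes were, and 23 of 24 in the untreated mutant, where 22.8% were. The member not called there was ppk31. Since the rule used these contrasts, nothing is read from those counts.

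**Figure D1:**
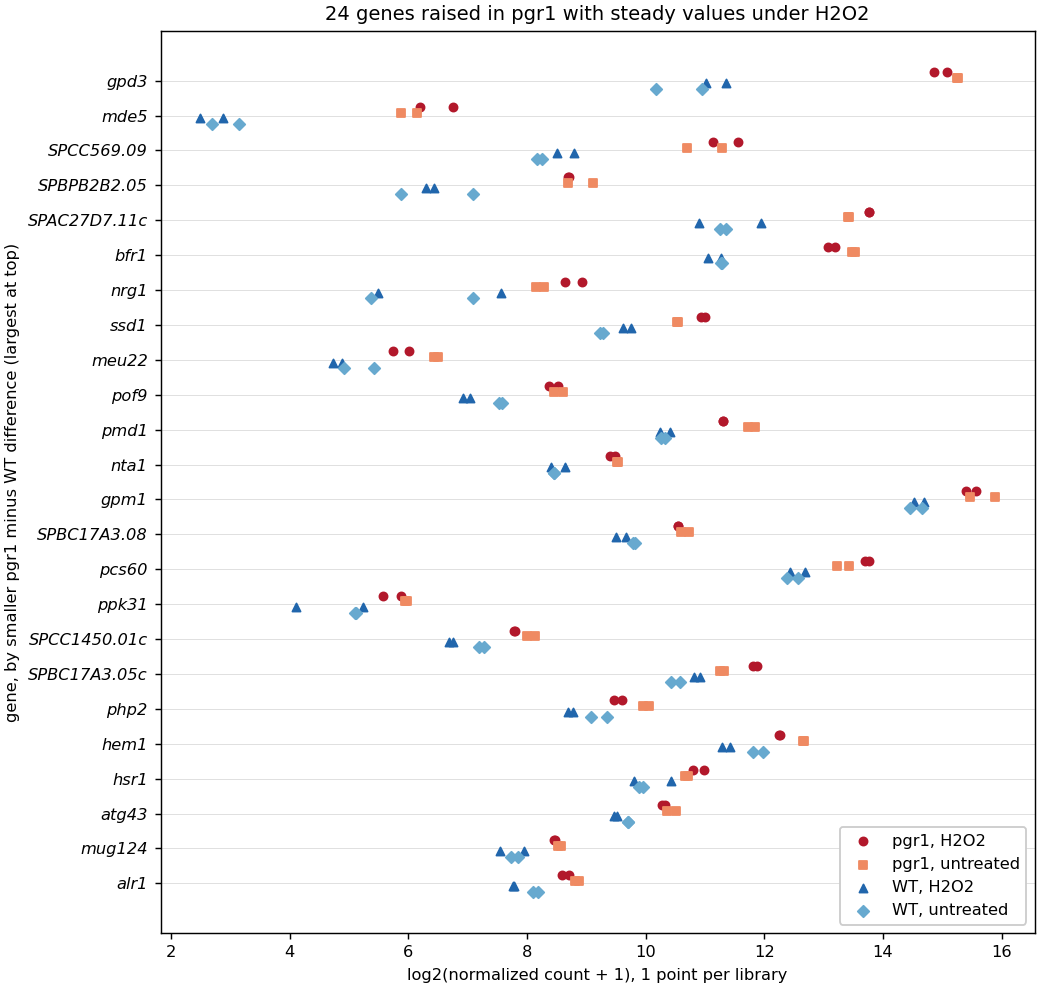
Levels of the 24 members in each library, as log2(normalized count + 1) on the horizontal axis, with genes ordered down the page by the smaller of their 2 differences between pgr1 and wild type. Each symbol is 1 library: circles for pgr1 with H2O2, squares for untreated pgr1, triangles for wild type with H2O2 and diamonds for untreated wild type. In every row the 4 mutant symbols lie to the right of the 4 wild-type symbols, and the wild-type pairs of nrg1 are the most widely spread.

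Carbon metabolism held gpd3, the member with the largest difference in untreated cells. The gene gpd3 (SPBC354.12, chromosome II) encodes a glyceraldehyde-3-phosphate dehydrogenase, the glycolytic enzyme that reduces NAD+ and depends on a reactive cysteine. It had 34747 and 29768 normalized counts in the treated mutant and 39090.2 and 39299 in the untreated mutant, against 2078 and 2608 in treated wild type and 1161 and 1971 in untreated wild type. Even the lowest mutant library lay far above the highest wild-type library, and the groups did not come near each other. The difference between strains was 3.79 ± 0.21 after H2O2 and 4.69 ± 0.21 without it. H2O2 moved gpd3 by -0.29 ± 0.21 in the mutant and by 0.62 ± 0.21 in wild type. That wild-type change was called in limma and lay outside the rule's window, though the group means put it inside, at 0.58. Under quantile normalization the changes were -0.71 in the mutant, outside the window, and 0.34 in wild type. Of the 31-base stretches of gpd3, 23.99% also occur in tdh1, its paralog, so reads may have been shared between the pair. The paralog tdh1 had 83892 and 72335 counts in the treated mutant and 86459.8 and 79790.5 in the untreated mutant, against 52536 and 58160.2 in treated wild type and 34585 and 42388 in untreated wild type. Its difference between strains, 0.49 ± 0.14 after H2O2 and 1.12 ± 0.14 without it, was smaller than that of gpd3.

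Further down the same pathway, gpm1 (SPAC26F1.06, chromosome I) encodes phosphoglycerate mutase. It had the highest counts of all members, 48896 and 43048 in the treated mutant and 60599 and 45559.8 in the untreated mutant, against 26455 and 23618 in treated wild type and 25719.8 and 22534 in untreated wild type. The wild-type libraries all fell in a narrow band, and the untreated mutant pair spread more widely. The strain difference was 0.88 ± 0.15 with H2O2 and 1.13 ± 0.15 without it, and H2O2 moved gpm1 by -0.20 ± 0.15 in the mutant and by 0.05 ± 0.15 in wild type. Under quantile normalization these H2O2 changes were -0.72 and -0.46, the first outside the rule's window. The strain difference with H2O2 was then 0.65, below the rule's limit. Per kilobase of exon, gpm1 ranked at percentile 99.7 of all genes over the 8 libraries and gpd3 at percentile 96.3.

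A list of 13 glycolysis genes, drawn up after these values were seen, puts both enzymes in their pathway. In limma 9 of its 13 genes were higher in the treated mutant and none lower, with a median of 0.35, and 12 of 13 were higher in the untreated mutant and none lower, with a median of 0.77. Under quantile normalization 6 were higher and 1 lower in the treated mutant (median 0.18), and 9 were higher and none lower in the untreated mutant (median 0.57). With H2O2 2 were higher and 3 lower in the mutant (median -0.09; 1 and 11 under quantile normalization). In wild type 8 were higher and none lower (median 0.43), but under quantile normalization 2 were higher and 5 lower (median -0.19). Over all genes tested the medians were 0.00515 for the treated strains, -0.000623 for the untreated strains, 0.0149 for H2O2 in the mutant and -0.000721 for H2O2 in wild type. Glycolytic genes outside the rule did not all behave alike. The enolase gene eno102 differed between strains by 1.46 after H2O2 and by 3.23 without it. With H2O2 it moved by 5.49 in wild type and by 3.72 in the mutant. The change of tdh1 with H2O2 was 0.53 ± 0.14 in wild type and -0.09 ± 0.14 in the mutant.

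The other 3 members of this group belong to the use of carbon compounds. The gene ssd1 (SPAC1002.12c, chromosome I), annotated as a putative succinate-semialdehyde dehydrogenase, had 1947 and 2056 counts in the treated mutant and 1475 and 1499 in the untreated mutant, against 785 and 864 in treated wild type and 601 and 622 in untreated wild type. Its strain difference was 1.28 ± 0.07 in each condition, and H2O2 moved it upward by 0.43 ± 0.07 in each strain. The difference between these 2 fitted changes was -0.00 ± 0.11. Under quantile normalization the H2O2 change was 0.23 in the mutant and 0.49 in wild type. The product of pcs60 (SPCC1827.03c, chromosome III) is annotated as an acetyl-CoA ligase. Its counts were 13986 and 13274 in the treated mutant and 11056 and 9631 in the untreated mutant, against 6561 and 5537 in treated wild type and 6050.4 and 5321 in untreated wild type. The mutant libraries all exceeded the wild-type ones, by 1.18 ± 0.11 with H2O2 and by 0.86 ± 0.11 without it. At the low end, mde5 (SPAC25H1.09, chromosome I), an alpha-amylase gene, had 72.1 and 107 counts in the treated mutant and 70.1 and 57.8 in the untreated mutant, against 4.62 and 6.32 in treated wild type and 7.88 and 5.47 in untreated wild type. These few reads gave differences of 3.79 ± 0.35 and 3.09 ± 0.35, and the whole of the exons of mde5 lies opposite SPAC4A8.02c. That partner had 1948 and 2066 counts in the treated mutant and 1260.3 and 1278 in the untreated mutant, against 1275 and 1339 in treated wild type and 886 and 868 in untreated wild type. The strand setting of the counting is not given in the sources used here, so the part of such a partner in the member's value was not tested.

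The exporters bfr1 and pmd1, well known for drug resistance in S. pombe, were both members. The gene bfr1 (SPCC18B5.01c, chromosome III) encodes a plasma membrane pump that exports brefeldin A, and pmd1 (SPCC663.03, chromosome III) encodes a pump for leptomycin. For bfr1 the counts were 8669 and 9404 in the treated mutant and 11796 and 11361 in the untreated mutant, against 2110.2 and 2477 in treated wild type and 2464 and 2494 in untreated wild type. The difference between strains was 1.98 ± 0.09 after H2O2 and 2.22 ± 0.09 without it. For pmd1 they were 2541 and 2522 in the treated mutant and 3687 and 3368 in the untreated mutant, against 1211 and 1361 in treated wild type and 1290.5 and 1219.8 in untreated wild type. The difference was 0.98 ± 0.08 after H2O2 and 1.49 ± 0.08 without it. In wild type the treated and untreated libraries of both genes lay close together, and in the mutant both treated libraries lay below both untreated ones. The H2O2 change in the mutant was -0.36 ± 0.09 for bfr1 and -0.48 ± 0.08 for pmd1. Under quantile normalization it was -0.66 and -0.83, outside the rule's window.

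Both pumps are on a list of genes of the Pap1 regulon that was chosen with earlier results of these data known. Of its 24 tested genes 20 were higher and 2 lower in the treated mutant (median 1.72), and 21 were higher and 1 lower in the untreated mutant (median 1.60). The list holds the deleted gene pgr1 itself, whose low value the deletion fixed in advance. It was the only gene lower in the untreated mutant, and pgr1 and gst3 (-0.44 ± 0.08) were the 2 lower in the treated mutant. With H2O2, 18 of the 24 were higher in the mutant (median 1.61), and the 2 lower ones were bfr1 and pmd1 themselves. For wild type the counts were 19 higher and 2 lower (median 1.64). In wild type some genes of the list had larger H2O2 changes: 1.47 for caf5, another exporter gene, 5.01 for srx1 (sulfiredoxin) and 1.46 for trr1 (thioredoxin reductase). The pumps were at -0.12 ± 0.09 for bfr1 and 0.03 ± 0.08 for pmd1. In the mutant caf5 moved upward by 0.39 and gst2 upward by 0.29, less in size than the fall of pmd1, while srx1 moved by 2.52 and trr1 by 3.06. The gene fmd2 moved by 0.49 in wild type and by 0.03 in the mutant. Its strain difference was 0.68 after H2O2 and 1.14 without it. A small H2O2 change on this list was therefore not particular to bfr1 and pmd1, though only these 2 were called lower with H2O2 in the mutant. Of 22 genes on a list of drug and toxin exporters, 9 were higher and 5 lower in the treated mutant (median -0.01), and 11 were higher and 4 lower in the untreated mutant (median 0.28).

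Promoter stretches of these genes are shown because the AP-1-like elements TTACTAA and TTAGTCA, described as sites of Pap1, occur in them. The 250 bases before each annotated transcript start were searched on both strands in the RefSeq assembly ASM294v3. The stretches run 5′ to 3′ on the strand of the gene, with the element in capitals.
bfr1, first base of the element 145 bases before the start: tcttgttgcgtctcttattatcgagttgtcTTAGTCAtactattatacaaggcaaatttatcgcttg
bfr1, first base 34 bases before the start: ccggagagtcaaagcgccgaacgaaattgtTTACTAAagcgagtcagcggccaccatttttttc
pmd1, first base 92 bases before the start: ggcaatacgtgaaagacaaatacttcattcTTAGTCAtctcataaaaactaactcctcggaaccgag
hem1, first base 128 bases before the start: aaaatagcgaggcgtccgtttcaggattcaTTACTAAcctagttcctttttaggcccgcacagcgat
Of the 24 member promoters 5, or 20.8%, held at least 1 of the elements on either strand, in bfr1, pmd1, hem1, atg43 and SPCC1450.01c. Among all 5128 promoters the share was 13.9%, and among 165 promoters of genes that were raised in the mutant but moved with H2O2 it was 31.5%. The TTACTAA element alone was in 10.7% of all promoters and in 3 of 24 members, and TTAGTCA was in 3.86% and in 3 of 24. The element of atg43 lies in exons of a neighbouring gene. Of other motifs searched, TGACGT, the element of Atf1, was in 1 of 24 member promoters, that of pof9, and in 5.56% of all promoters, and TGTTTAC, a forkhead motif, was in 4 of 24, those of bfr1, gpd3, mde5 and pmd1, and in 14.7% of all. The elements do not overlap each other, and a match describes these letters in this window and no more.

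Permeases made up the other transporters. The gene nrg1 (SPBPB2B2.01, chromosome II), annotated as an amino-acid permease, had 397 and 486 counts in the treated mutant and 285 and 311 in the untreated mutant, against 43.9 and 188 in treated wild type and 40.3 and 136 in untreated wild type. Although the groups did not overlap, the 2 wild-type libraries of each condition lay far apart, replicate 1 being the lower both times. The difference between strains, 2.26 ± 0.66 and 1.99 ± 0.66, carried the largest error of all members. Leaving out replicate 1 of treated or of untreated wild type brought it to 1.22 and 1.13, and nrg1 was called in 5 of 8 fits that left out 1 library after H2O2 and in 3 of 8 without it. The other permease gene, meu22 (SPBC19F8.06c, chromosome II), had 63.6 and 52.5 counts in the treated mutant and 89.0 and 85.5 in the untreated mutant, against 25.4 and 28.4 in treated wild type and 42.0 and 29.2 in untreated wild type. Of its exons 75.5% lie opposite mrps26, whose own difference between strains was 0.09 ± 0.08 with H2O2 and -0.17 ± 0.08 without it. A list of 25 transporters of amino acids, peptides and nitrogen compounds, to which meu22 belongs, had 7 genes higher and 8 lower in the treated mutant (median -0.11) and 6 higher and 2 lower in the untreated mutant (median 0.20; 3 and 3 under quantile normalization).

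Several members act on amino acids, proteins and organelles. The product of SPBPB2B2.05 (chromosome II) is a class I glutamine amidotransferase family protein, a group of enzymes that handle the amide nitrogen of glutamine. It had 413 and 419 counts in the treated mutant and 412 and 553 in the untreated mutant, against 85.6 and 78.0 in treated wild type and 57.8 and 135 in untreated wild type. Those values left a clear gap between the strains, of 2.33 ± 0.33 with H2O2 and 2.42 ± 0.33 without it. The gene alr1 (SPCC965.08c, chromosome III) encodes alanine racemase, which interconverts the mirror forms of alanine. Its counts were 385 and 419 in the treated mutant and 447 and 471 in the untreated mutant, against 217 and 220.2 in treated wild type and 289 and 274 in untreated wild type, a difference near the lower limit of the rule.

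Protein turnover is represented by nta1 (SPBC23E6.03c, chromosome II), which encodes an amidase acting on the first residue of proteins, and pof9 (SPBC3H7.06c, chromosome II), which encodes an F-box protein, the class that picks substrates for SCF ubiquitin ligases. For nta1 the counts were 714 and 676 in the treated mutant and 741 and 736 in the untreated mutant, against 397 and 339 in treated wild type and 351 and 352 in untreated wild type. This was the steadiest member by the rule's values, with its larger H2O2 change at 0.09 in size. Its exons lie wholly opposite rrp2, which differed between strains by 0.07 ± 0.07 with H2O2 and 0.23 ± 0.07 without it. For pof9 they were 331 and 366 in the treated mutant and 351 and 388 in the untreated mutant, against 120.2 and 131 in treated wild type and 183 and 189.6 in untreated wild type. Here the mutant libraries of both conditions interleaved, while treated wild type lay below untreated wild type, at -0.57 ± 0.12.

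The mitophagy receptor gene atg43 (SPAC14C4.01c, chromosome I), whose product marks mitochondria for autophagy, had 1235 and 1284 counts in the treated mutant and 1309 and 1459 in the untreated mutant, against 708 and 734 in treated wild type and 833 and 837 in untreated wild type. The strains differed by 0.80 ± 0.08 with H2O2 and by 0.73 ± 0.08 without it. Of its exons 44.9% lie opposite uga1. In a list of 32 autophagy and vacuole genes 17 were higher and 3 lower in the treated mutant (median 0.28), and 28 were higher and 1 lower in the untreated mutant (median 0.54). With H2O2 25 of the 32 were higher and 3 lower in the mutant, and 26 were higher and 2 lower in wild type, where atg43 was at -0.21 ± 0.08. The J-domain gene SPBC17A3.05c (chromosome II), of a protein class that works with Hsp70 chaperones, had 3593 and 3765 counts in the treated mutant and 2445 and 2555 in the untreated mutant, against 1794 and 1943 in treated wild type and 1374 and 1523 in untreated wild type. Within each strain both treated libraries lay above both untreated ones, by 0.56 ± 0.08 in the mutant and 0.37 ± 0.08 in wild type.

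Heme synthesis and gene regulation held 3 members. The gene hem1 (SPAC2F3.09, chromosome I) encodes 5-aminolevulinate synthase, which makes the first precursor of heme. It had 4886 and 4944 counts in the treated mutant and 6491 and 6414 in the untreated mutant, against 2752 and 2484 in treated wild type and 4012 and 3587 in untreated wild type. The difference between strains was 0.91 ± 0.08 after H2O2 and 0.77 ± 0.08 without it. Within each strain hem1 was lower with H2O2, at -0.39 ± 0.08 in the mutant and -0.54 ± 0.08 in wild type. Under quantile normalization these changes were -0.80 and -0.95, outside the rule's window.

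The factor gene php2 (SPBC725.11c, chromosome II) encodes a subunit of the complex that binds CCAAT boxes and is tied to respiratory and iron-using genes. Its counts were 707 and 778 in the treated mutant and 1062 and 992 in the untreated mutant, against 437 and 414 in treated wild type and 654 and 537 in untreated wild type. The strain difference was 0.80 ± 0.11 and 0.79 ± 0.11, and the H2O2 change was -0.47 ± 0.11 in the mutant and -0.48 ± 0.11 in wild type, so neither difference varied much with the other factor. Of its exons 35.6% lie opposite tsp0, which was at 12897 and 13162 counts in the treated mutant and 1582 and 1791 in the untreated mutant, against 10779 and 11758 in treated wild type and 316 and 340.0 in untreated wild type. The H2O2 change of tsp0 ran opposite in sign to that of php2 in both strains. CCAAT boxes occurred in 8 of 24 member promoters, or 33.3%, beside 35.5% of all promoters, and 1 of the 8 was that of php2 itself.

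The third of these genes, hsr1 (SPAC3H1.11, chromosome I), encodes a DNA-binding transcription factor with a role in the response to H2O2. It had 1779.8 and 2013 counts in the treated mutant and 1679 and 1624 in the untreated mutant, against 896 and 1376 in treated wild type and 988 and 948 in untreated wild type. The strains were separated by 0.77 ± 0.17 in each condition, with 1 treated wild-type library well above the other, and the difference after H2O2 was 0.46 without the lower of them. On the list of core stress genes hsr1 was the only member. Of the 26 genes on that list, 23 were higher and 2 lower with H2O2 in the mutant (median 1.95), and 23 were higher and 1 lower with H2O2 in wild type (median 3.91), against 0.20 ± 0.17 for hsr1 in each strain.

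**Figure D2:**
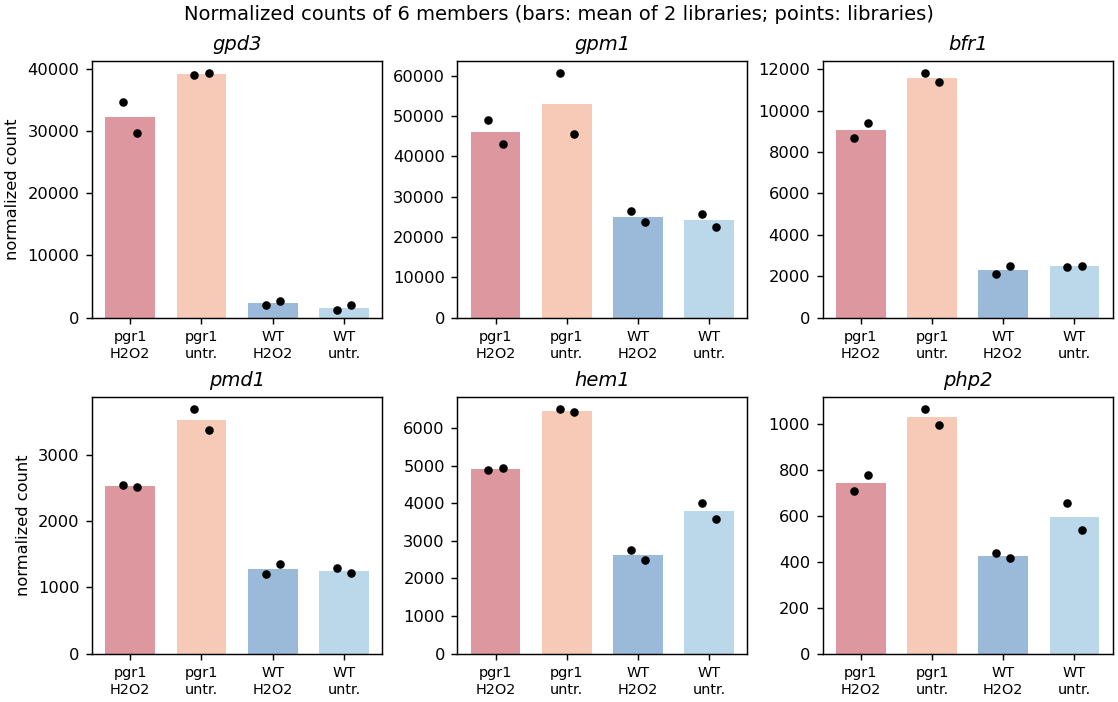
Normalized counts of gpd3, gpm1, bfr1, pmd1, hem1 and php2, with 1 panel per gene on its own linear axis from 0, bars for the mean of 2 libraries and points for the libraries. From left to right the bars are pgr1 with H2O2, untreated pgr1, wild type with H2O2 and untreated wild type. Both mutant bars exceed both wild-type bars in every panel, and for hem1 and php2 the treated bar is below the untreated bar in both strains.

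The remaining members have fewer known roles. The product of SPCC569.09 (chromosome III) is uncharacterized, and its counts were 2259 and 2996 in the treated mutant and 1651 and 2506 in the untreated mutant, against 361 and 445 in treated wild type and 304 and 286 in untreated wild type. The gap between strains was 2.70 ± 0.20 with H2O2 and 2.78 ± 0.20 without it. The But2 family gene SPAC27D7.11c (chromosome I) had 13917 and 13855 counts in the treated mutant and 10959 and 10954 in the untreated mutant, against 1899 and 3925 in treated wild type and 2454 and 2615 in untreated wild type. The treated wild-type libraries differed from each other more than any other pair of this gene, and without one or the other of them the H2O2 change in wild type was 0.63 or -0.42, where it was 0.11 ± 0.26 with both. The strains still did not overlap, with a difference of 2.35 ± 0.26 after H2O2 and 2.11 ± 0.26 without it. Its relative SPAC27D7.09c, with which it shares 6.07% of its 31-base stretches, had 51890.4 and 52315 counts in the treated mutant and 23569.7 and 24172 in the untreated mutant, against 7919 and 11167 in treated wild type and 1021 and 1361 in untreated wild type. Unlike the member, the relative moved by 1.13 ± 0.17 with H2O2 in the mutant and by 2.99 ± 0.17 in wild type.

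Counts of the last 4 members ran from 16.2 in ppk31 to 1695 in SPBC17A3.08, and mde5 and meu22, described above, also had few reads. The kinase gene ppk31 (SPBC725.06c, chromosome II) had 46.4 and 58.1 counts in the treated mutant and 60.2 and 62.0 in the untreated mutant, against 16.2 and 36.9 in treated wild type and 33.3 and 33.7 in untreated wild type. Its difference of 1.05 ± 0.35 with H2O2 and 0.85 ± 0.35 without it rests on few reads, and without replicate 1 of treated wild type the difference after H2O2 was 0.48. The call after H2O2 was made in 3 of 8 fits that left out 1 library, and the one without H2O2 in 2 of 8. The gene mug124 (SPBC19C2.06c, chromosome II), of a family named for high levels in meiosis, had 353 and 352 counts in the treated mutant and 382 and 369 in the untreated mutant, against 246 and 185 in treated wild type and 210.1 and 231 in untreated wild type. The pseudogene SPCC1450.01c (chromosome III), the one member that is not protein-coding, had 219 and 221 counts in the treated mutant and 279 and 255 in the untreated mutant, against 102 and 106 in treated wild type and 154 and 145 in untreated wild type. In that gene both treated libraries lay below both untreated ones in each strain. The gene SPBC17A3.08 (chromosome II), annotated as a TatD deoxyribonuclease, had 1491 and 1489.6 counts in the treated mutant and 1695 and 1549 in the untreated mutant, against 815 and 721 in treated wild type and 903 and 879.7 in untreated wild type. Of its exons 77.6% lie opposite aim22.

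The word steady covers small but measurable changes, and for some members changes that were only loosely measured. In limma the H2O2 change in wild type was 0.29 ± 0.66 for nrg1, -0.44 ± 0.35 for ppk31 and -0.11 ± 0.33 for SPBPB2B2.05. Fits that left out 1 library put it at -0.74 to 1.33, -1.01 to 0.13 and -0.72 to 0.49, in that order. For such genes the lack of a call does not show a steady level. By the rule's group means the H2O2 change of the members ran from -0.58 to 0.57 in the mutant, with 8 of 24 higher and 16 lower, and from -0.57 to 0.58 in wild type, with 11 higher and 13 lower. In 19 members the sign was the same in both strains, and 7 members stayed within 0.25 of 0 in both. In limma 3 members were called higher and 4 lower with H2O2 in the mutant, where 68.2% of all genes were called in either direction (35.7% higher and 32.5% lower). In wild type 3 were called higher and 7 lower, where 72.3% of all genes were called (37.7% and 34.6%). Taking both strains, 13 members were called in at least 1 of them, beside 82.2% of all genes, and 11 in neither. The 13 genes were alr1, atg43, bfr1, gpd3, hem1, pcs60, php2, pmd1, pof9, ssd1, SPBC17A3.05c, SPBC17A3.08 and SPCC1450.01c. Of these 13, the single calls of atg43, SPBC17A3.08, gpd3 and pcs60 were lost in some of the 8 fits that left out 1 library each, in 5, 5, 2 and 2 of them. The rule used these contrasts too, so nothing is read from the counts. Steadiness also depended on the scaling: under quantile normalization 17 of the 24 stayed inside the window in both strains, while gpd3, gpm1, bfr1, pmd1 and hem1 fell below it in the mutant, at -0.66 to -0.83, and hem1 also in wild type, at -0.95. The other 2, mde5 and nrg1, lay above the window in the mutant, at 0.82 each. Under that scaling 15 of the 24 still exceeded wild type by 0.7 in both conditions, and the lowest strain difference was that of ppk31 in untreated cells, at 0.31. The comparisons share libraries, since the same untreated mutant or treated wild-type values enter more than 1 of them.

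Genes at the edge of the rule show how it divides a continuum. By the rule's group means, alr1 lay just inside it, at 0.70 in untreated cells. So did gpd3, whose H2O2 change in wild type was 0.58, and meu22, whose change in the mutant was -0.58. The limma values of these 2 changes were 0.62 ± 0.21 for gpd3 and -0.59 ± 0.24 for meu22, both outside the window. Just outside by the group means were mug106 and sqt1, with H2O2 changes in wild type of -0.59 each, and SPAC8E11.08c, at -0.59 in the mutant. The step from inside to outside was smaller than the SE of any of these members' differences.

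Most genes raised in the mutant did move with H2O2. Leaving out wtf and Tf2 names, 191 genes met the conditions on level and on strain difference, and the 24 members were 12.6% of them. Of the 4901 genes at 20 counts or more in all mutant libraries, 2381, or 48.6%, stayed inside the H2O2 window in both strains. Among the 167 raised genes that were not steady, 117 lay above the window in the mutant and 27 below it, 118 lay above it in wild type and 28 below, and 102 were above in both strains. The opposite class was different in make-up: of 83 genes lowered by at least 0.7 in the mutant in both conditions, with all wild-type libraries at 20 or more, 46 were steady under H2O2, or 55.4%. Both counts include the deleted pgr1, whose low value the deletion fixed in advance. These shares describe how the classes divide and carry no test, since the same values define them.

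**Figure D3:**
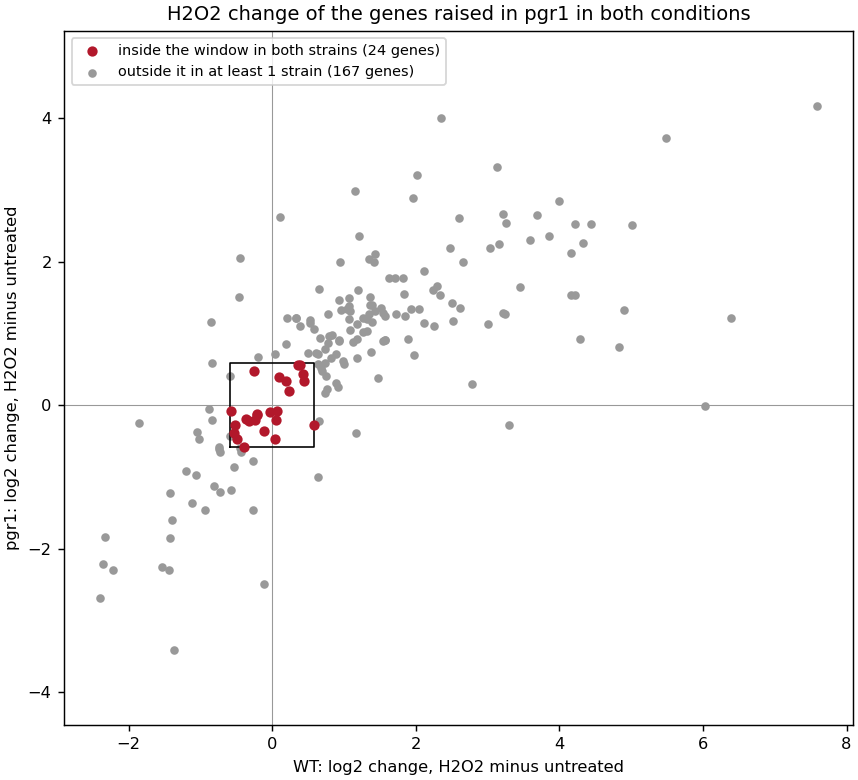
H2O2 change of the 191 genes raised in pgr1 in both conditions, with 1 point per gene, the log2 change in pgr1 on the vertical axis and the log2 change in wild type on the horizontal axis, both as treated minus untreated group means. Red points are the 24 members inside the window of 0.585, drawn as a square, and grey points are the other 167 genes, of which 102 lie above and to the right of the window.

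The response to H2O2 differed between strains for 1 member in limma, pmd1, at -0.51 ± 0.11 for the change in the mutant minus that in wild type. Over all genes 27.3% were called for that difference, 12.0% with a positive value and 15.3% with a negative one. The largest unsigned values among the other members were -0.91 ± 0.30 for gpd3 and 0.70 ± 0.49 for mde5, and neither was called. Under quantile normalization 3 members were called for this difference. The rule kept the H2O2 change of every member inside its window in both strains. That limits the size of this difference among members, so nothing is read from how many were called.

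Position along the chromosomes was not used by the rule. Its name filter left out 6 wtf genes that otherwise qualified, and the split below does not include them. Chromosome II held 11 members, chromosome I held 7 and chromosome III held 6, while 36.5%, 45.5% and 18.03% of the table's genes lie there. The 42 table genes directly beside a member that were tested were higher in the treated mutant in 19 cases and lower in 4, with a median of 0.21, and higher in the untreated mutant in 19 cases and lower in 3, with a median of 0.11. That is 45.2% higher in each condition, beside 26.5% and 22.8% of all genes. The deleted pgr1 is itself directly beside SPBC17A3.08, and its low value was fixed in advance by the deletion. Some neighbours overlap a member on the opposite strand, and the part of that overlap in the counts was not tested.

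Members flank the deleted gene itself. SPBC17A3.08 is next to pgr1 on chromosome II, and SPBC17A3.05c is 2 genes away on the other side. Between SPBC17A3.05c and pgr1 lies SPBC17A3.06, which had 55.0 and 59.2 counts in the treated mutant and 143 and 127 in the untreated mutant, against 68.2 and 66.4 in treated wild type and 166 and 191 in untreated wild type. That gene was at -0.23 ± 0.16 and -0.40 ± 0.16 and was not called in either condition. On the far side of SPBC17A3.08, aim22 was at 0.22 ± 0.08 with H2O2 and 0.30 ± 0.08 without it, and pas4 was at 0.47 ± 0.09 in each condition. How the deletion was made is not given in the sources used here, so an effect of the altered locus and an effect of the missing enzyme cannot be told apart for SPBC17A3.08 and SPBC17A3.05c.

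A second pair lies near the end of chromosome II. In the order of table genes nrg1 is number 24 from the end and SPBPB2B2.05 number 22, with say1 between them. The gene say1 had 709 and 739 counts in the treated mutant and 181 and 229 in the untreated mutant, against 800.1 and 936 in treated wild type and 71.8 and 105 in untreated wild type, so unlike its neighbours it moved with H2O2 in both strains, by 1.83 ± 0.19 in the mutant and 3.30 ± 0.19 in wild type. The next gene outward, SPBPB2B2.06c, was higher in the mutant by 3.86 ± 0.62 with H2O2 and 4.20 ± 0.62 without it, with 255 and 296 counts in the treated mutant and 521 and 728 in the untreated mutant, against 8.09 and 39.0 in treated wild type and 21.0 and 50.1 in untreated wild type. As for nrg1, replicate 1 was the lower wild-type library in each condition. On chromosome III, SPCC569.09 is number 7 from an end and pcs60 number 23.

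The third pair, ppk31 and php2, lies on chromosome II, with pex5, pir2, hob3 and tsp0 between them. Of those 4, hob3 was called higher in the mutant in both conditions, by 0.27 ± 0.07 with H2O2 and 0.36 ± 0.07 without it. The gene pir2 was called only after H2O2 (0.83 ± 0.08, with 0.09 ± 0.08 untreated), tsp0 only without it (0.21 ± 0.08 with H2O2 and 2.36 ± 0.08 untreated), and pex5 in neither.

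**Figure D4:**
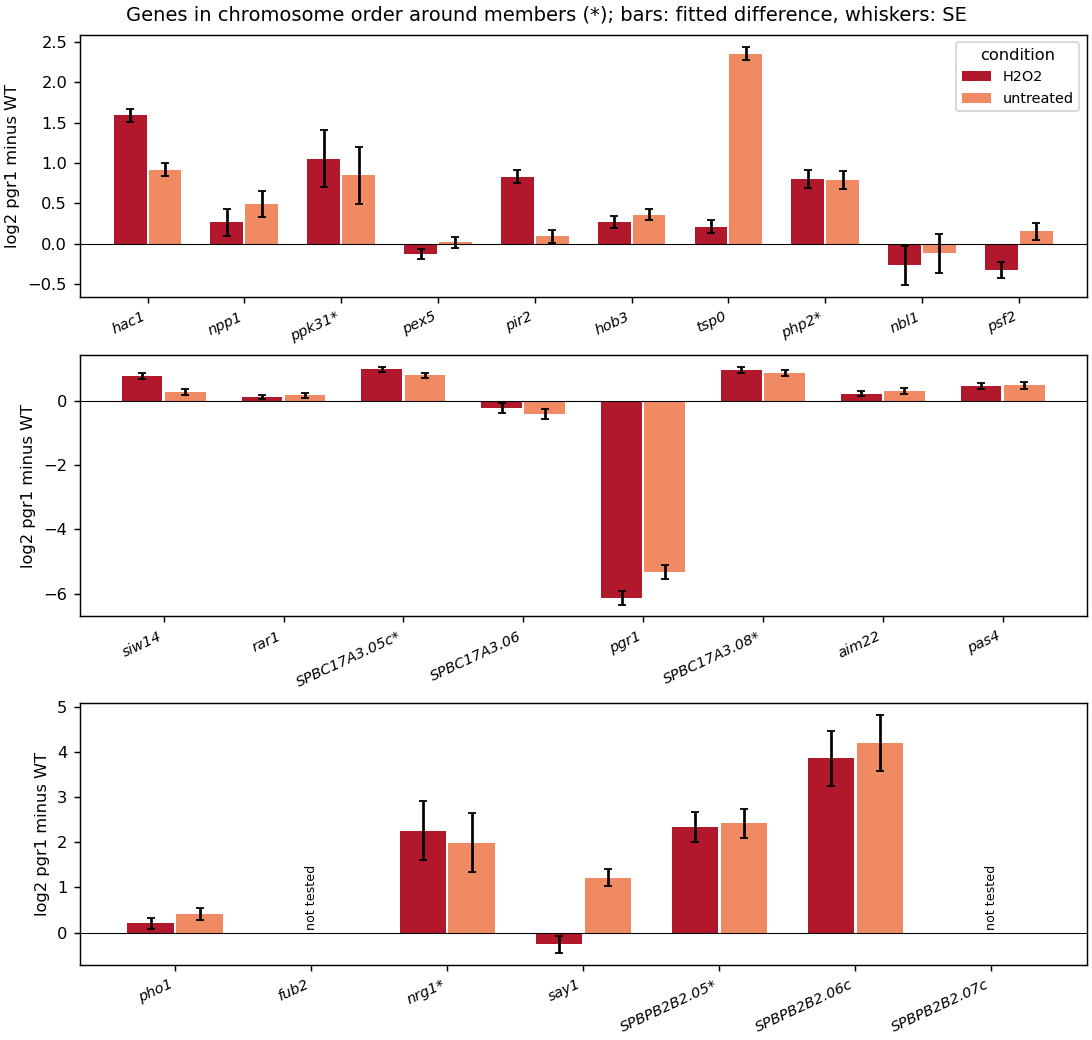
Genes in chromosome order around 3 groups of members, which carry an asterisk: ppk31 and php2 at the top, SPBC17A3.05c and SPBC17A3.08 beside the deleted pgr1 in the middle, and nrg1 and SPBPB2B2.05 near the end of chromosome II at the bottom. Bars give the log2 difference of pgr1 minus wild type, with H2O2 in red and untreated in orange, and whiskers give the SE. Between the starred genes lie genes that behave otherwise, such as pex5, SPBC17A3.06 and say1.

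By length-scaled level the members covered the whole range of the transcriptome. Per kilobase of exon 10 of 24 lay above the median gene and 4 in the top 10% of genes, which were gpm1, gpd3, SPAC27D7.11c and pcs60. The lowest, ppk31 and meu22, stood at percentiles 0.80 and 0.88. Exon length ran from 537 bases in SPCC569.09 to 6117 in bfr1, with a median of 1951.

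The gene lists used here held few of the members. Of 29 lists, which covered redox, stress, iron, sulfur, amino acid, mitochondrial, protein quality control and other genes, 7 held at least 1 member and 22 held none. Counting each gene once, 7 members stood on 1 of the 29 lists or more and 17 on none, and gpm1 was only on the later list of glycolysis genes. The single member on the list of oxidoreductases and aldehyde reductases was ssd1. Of the 27 genes tested there, 20 were higher and 4 lower in the treated mutant (median 1.28), and 19 were higher and none lower in the untreated mutant (median 1.51). With H2O2 18 were higher and 5 lower in the mutant (median 1.35), and 20 were higher and 3 lower in wild type (median 1.35). The list of trehalose and glycerol genes held gpd3 by mistake, since its product is the glycolytic dehydrogenase and makes no glycerol. Of its 11 genes 4 were higher and 4 lower in the treated mutant (median 0.00, and -0.24 under quantile normalization), and 8 were higher and 1 lower in the untreated mutant (median 0.91). No member stood on the lists of the thioredoxin, glutathione, iron uptake or respiratory chain genes.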

How the data were processed

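Per the submitters' processing notes, the tools were FastQC, Trimmomatic, Salmon and DESeq2 and the build ASM294v2. Per the labels the libraries came from a stranded mRNA kit. Tool versions and strand settings are not given there. The deposited signal is a DESeq2-normalized count, for which the authors scaled the reads of each library by its size factor. It covers 5165 genes, and 1 line that names no gene was left out. Dividing by the step of 1 read gave whole reads, to within 0.05, for 99.98% to 100.0% of values, and these recovered reads served the alternatives. Replicate libraries differed by more than sampling noise (chi-square per degree of freedom 7.85 to 24.3).

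The rule for the 24 genes was applied to group means. limma 3.58.1 (R 4.3.3, trend in the prior variance) was fitted to log2(value + 1) of the 5028 genes with at least 10 in at least 2 libraries (137 left out), with 1 mean per group and 4 residual degrees of freedom. Tests were two-sided, with Benjamini-Hochberg adjustment over all genes and a threshold of 0.05, and a p-value reflects no more than the spread among these libraries. The pseudocount understates the change of genes with few reads. The alternatives were other pseudocounts, no filter, quantile normalization, edgeR 4.0.16 and DESeq2 1.42.0 on recovered reads, a replicate block, other limits of the rule, and leaving out each library.

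The members and the gene lists were chosen with earlier results of these data known. Members named in the text were the 16 with the largest smaller difference, the 5 most abundant, the 5 steadiest, up to 4 of each list, those at the rule's edges and those near each other, and the remaining members were added so that each is accounted for. Gene names, gene order, exons and promoters come from RefSeq ASM294v3 (5129 identifiers matched and 36 did not). Since that build differs from the authors', coordinates are left out. Depth sets the counting error only. Marked as uncertain were genes sharing 5% or more of their 31-base stretches with another gene (2 members) and genes with more than 50% of exon bases opposite one (4 members).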

Additional observations from a re-analysis of the deposited data

Results flagged for a closer look

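For pmd1, the leptomycin exporter gene, the change with H2O2 in the mutant minus that in wild type was -0.51 ± 0.11. It was called for that difference in the limma fit over all genes (n = 2 libraries in each group). No other member was called in that fit, where 27.3% of all genes tested were. The levels of pmd1 and its H2O2 change in each strain served to choose it, which limits the size of this difference. The call is therefore given as a description, and nothing is read from it. Under quantile normalization 3 members were called, with the replicate number as a block 4, and 2 when replicate 2 of untreated wild type or either replicate of treated wild type was left out. Its normalized counts were 2541 and 2522 in the treated mutant and 3687 and 3368 in the untreated mutant, against 1211 and 1361 in treated wild type and 1290.5 and 1219.8 in untreated wild type. The difference was -0.73 under quantile normalization and -0.51 in edgeR and in DESeq2, and leaving out 1 library at a time gave -0.59 to -0.43.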

How the results depend on the processing

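The number of members, 24 as reported, followed the limits of the rule. It was 9 with a strain difference of 1 in place of 0.7 and 49 with 0.5, 7 with an H2O2 window of 0.322 in place of 0.585 and 64 with a window of 1, and 15 when each mutant library had to exceed each wild-type library by 0.7 on its own. Quantile normalization gave 19 genes, of which 10 were among the 24, TMM scaling of recovered reads 20, all among the 24, no minimum level 28, a minimum of 100 21, and keeping wtf genes, an alternative added after seeing the data, 30. Leaving out 1 library gave 19 to 30 genes, with 17 to 23 of the 24 among them. The counts over all genes were 1937 for the untreated strains (1351 to 2060 with 1 library left out), 2462 for the treated strains (1628 to 2488, the lowest without replicate 2 of the treated mutant), 3635 for H2O2 in wild type (3376 to 3588), 3427 in the mutant (2827 to 3478) and 1372 for the difference between responses (781 to 1400, with 909 without replicate 1 of the treated mutant and 781 without replicate 2). For the untreated strains 1145 genes were higher and 792 lower, against 984 and 1443 under quantile normalization. With the replicate number as a block the counts were 2345, 2794, 3822, 3638 and 1684, and 24, 24, 11, 9 and 4 members were called. Same-numbered libraries correlated in their deviations by -0.14 to 0.37 over 6 pairs of groups, above 0.1 in 3 of them, and the labels give the numbers no shared origin, so pairing was not taken as established. Of 1800 recomputed member values, 1611 moved by less than the replicate spread, 189 by more and 0 changed sign after passing a threshold. By SE the least precise strain difference was that of nrg1 (0.66), before ppk31 (0.35) and mde5 (0.35), which have few reads.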
